A study of Zea mays with 58 samples.

Results

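Maize roots were compared at 15 min and at 10 min after transfer to fresh medium with potassium chloride and no nitrogen (noN). The comparison takes 6 of the 58 libraries of the series, 3 at each time, chosen by their labelled medium and time. It was picked because, among the early noN steps, it is the one with many risen genes. In these roots 417 genes rose and 62 fell within 5 min.

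All libraries come from seedlings of the inbred line B73, aged 10 days, with the endosperm cut off and no nitrogen in the medium for the last 2 days. The noN medium held 20 mM KCl. The nitrogen (N) medium held 20 mM KNO3 and 20 mM NH4NO3 in its place, part of it labelled with a heavy nitrogen isotope, so the media differ in salt as well as in nitrogen. Each biological replicate pooled 3 seedlings, and the groups used beside the 10 and 15 min roots are noN roots at 0, 5, 20, 30, 45, 60, 90 and 120 min and N roots from 5 to 120 min. Libraries were made with a 3′ mRNA kit that gives reads near the polyadenylated end of each transcript, with molecular identifiers.

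As background, nitrate is both a nutrient and a signal for roots, and plants are usually moved to potassium chloride as the mock treatment for it, so that handling and fresh medium are the same in both arms. Transcripts that rise and decline again within minutes are known as early response transcripts. In plants they often include regulators of transcription and genes of calcium, hormone and defence signalling. The count table identifies genes by ID only, and no table used here pairs these IDs with names, so no gene below carries a name or a role, and the lists by name (AP2/ERF, WRKY, JAZ, calmodulin-like, nitrate assimilation and photosynthesis genes) have 0 members. For the same reason the labelled tissue could not be checked against root marker genes. In RNA from whole roots, more cells with a transcript and more of it per cell cannot be told apart.

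The libraries at 10 min held 2388858 to 3235714 counts and those at 15 min 2681197 to 3162888, within the 1978039 to 3790442 of the series. The 50 most counted features took 7.28% to 7.96% of counts at 10 min and 7.60% to 8.41% at 15 min, and the mean log2 exon length weighted by counts was 11.01 to 11.05 and 11.01 to 11.02. Annotated non-coding features took 0.135% to 0.170% of counts at 10 min and a lower share, 0.112% to 0.121%, at 15 min. Plastid features took at most 0.000261% of counts in these 6 libraries and at most 0.000458% in the series. The kit captures polyadenylated transcripts, so this low share does not tell whether leaf tissue was present. The N libraries of 5 to 20 min differed from them in makeup, with 9.01% to 11.4% of counts on the 50 most counted features and a mean log2 exon length of 10.924 to 10.997.

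Of 18872 genes tested, 2.21% rose from 10 to 15 min and 0.329% fell (edgeR's quasi-likelihood test, Benjamini-Hochberg adjusted p of 0.05), while the median of all genes was -0.02 on the log2 scale. The median rise was 1.30 on the log2 scale, with an interquartile range of 0.86 to 1.96. The falls were smaller, with a median of -0.81 and an interquartile range of -1.06 to -0.70. A change of 1 or more on the log2 scale was reached by 282 risen genes, 1.49% of those tested, and by 17 fallen genes, 0.0901%. Among the risen genes 99 changed by at least 2 and 34 by at least 3 on this scale, and the highest value was 5.28. These counts enter 2 genes with 0 counts in all 10 min libraries at a bound, against a floor of 3 counts over the group, and the median is 1.30 with them at that bound.

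**Figure D1:**
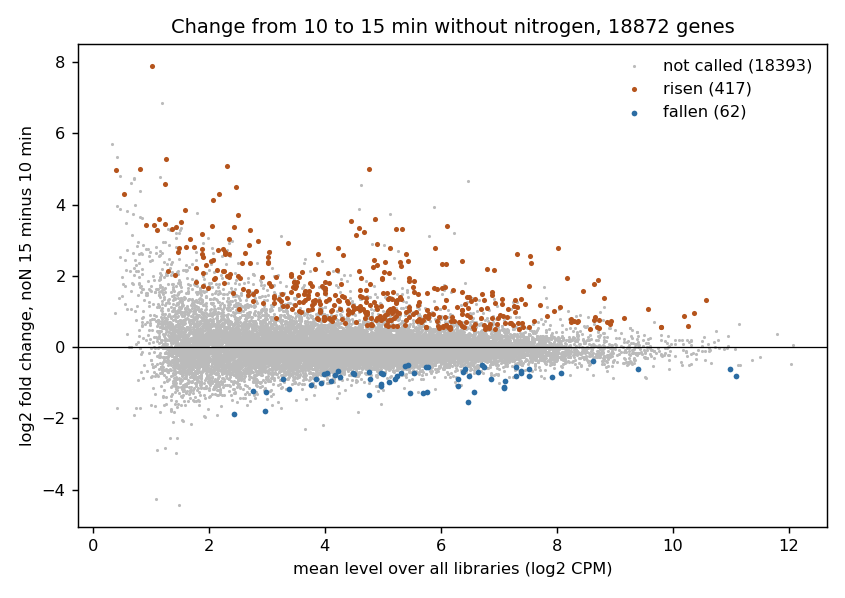
Log2 fold change from 10 to 15 min without nitrogen (vertical) against the mean level over all libraries in log2 CPM (horizontal), 1 point per gene tested. The 417 risen genes (orange) lie at all levels and reach larger changes than the 62 fallen genes (blue); fitted values at the far left belong to genes with few or no counts at 10 min.

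The risen genes were spread over all levels. Their median level went from 21.3 CPM (counts scaled to a fixed library total) at 10 min to 50.8 CPM at 15 min, and 61 of them were at 100 CPM or above already at 10 min. As a group they took 3.17%, 2.67% and 2.60% of all counts in the 10 min libraries, in order of replicate number, and this share was 6.46%, 4.61% and 7.52% in those of 15 min. All 3 libraries at 15 min lay above all 3 at 10 min, with replicate 2 the lowest of the later time. The share of the fallen genes went from 0.860%, 0.800% and 0.711% of counts to 0.474%, 0.532% and 0.392%, again with no overlap.

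Gene by gene, the lowest library at 15 min lay above the highest at 10 min in 390 of the 417 risen genes, and 61 of the 62 fallen genes had no overlap in the other direction. Over all genes tested, 11.2% lay without overlap higher and 9.75% lower. The rule that called the genes used these same values, so the counts describe the members and support nothing further. At the edge of the call, the last gene called had an adjusted p of 0.0492 and a log2 fold change of -0.50, and the first gene not called had 0.0503 and 1.39.

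The number of calls rests on single libraries. Without replicate 1, 2 or 3 of 10 min, 266, 138 and 120 genes rose and 8, 18 and 35 fell. Without replicate 1, 2 or 3 of 15 min, 203, 687 and 60 rose and 16, 146 and 3 fell. With only these 6 libraries in the fit 214 rose and 8 fell, or 392 and 33 with the replicate number as a block. Of the 417 risen genes, 168 were among those 214 and 248 among those 392. A limma fit of the authors' quantile normalized values called 414 risen and 156 fallen genes, a larger share of falls.

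The 3 libraries of 15 min did not hold the rise equally. Replicate 3 was the highest of the 3 in 338 of the 417 risen genes (81.1%), against 39% of all genes tested. Replicate 1 was highest in 70 genes (16.8%, against 26.7%) and replicate 2 in 9 (2.16%, against 34.4%). Replicate 2 was the lowest in 385 of the risen genes. A level of at least 2-fold over the 10 min mean was reached in all 3 libraries by 128 genes, in 2 libraries by 137, in 1 library by 86 and in 0 libraries by 66. Among the risen genes the median SD of log2 CPM over 3 libraries was 0.45 at 15 min, up from 0.28, where the values over all genes were 0.23 and 0.22. The roots of one time thus differed in the size of the rise, and the 3 libraries differed by at least 4-fold in 5.28% of the risen genes against 0.864% of all genes.

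The 9 genes led by replicate 2 were grouped by their 15 min values, so the place of replicate 2 on top at 15 min is fixed by that choice. Their median level at 15 min, as a log2 difference from the mean of time 0, was 2.30 in replicate 1, 3.73 in replicate 2 and 0.41 in replicate 3. At 5 min without nitrogen it was 1.93, 2.16 and 0.16, so replicates 1 and 2 were high there too. The 338 genes led by replicate 3 had medians of 0.73, -0.18 and 0.00 in the same 3 libraries of 5 min, high in replicate 1 only.

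Set beside the starting point, the risen genes were near their time 0 level at 10 min and above it at 15 min. Their median log2 difference from the mean of time 0 was 0.13, -0.09 and -0.09 in the 3 libraries of 10 min. It was 1.28, 0.74 and 1.52 in those of 15 min, and 0.46, -0.03 and -0.08 in those of 20 min. At 20 min 2 of the 3 libraries lay near the time 0 level and replicate 1 lay above it. The 10 and 15 min libraries chose the genes, so no return from 15 min is read from this. The count of risen genes above the highest time 0 library ran likewise. It was 168, 92 and 98 of 417 in the 10 min libraries, 407, 349 and 409 in those of 15 min, and 288, 104 and 106 in those of 20 min. Over all genes tested, the share above the highest time 0 library was 28.5% to 30.3% for 10 min, 32.8% to 34.2% for 15 min and 27.4% to 35.99% for 20 to 45 min.

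Single libraries of other noN times also held these genes high. At 5 min replicate 1 had a median of 0.80 above time 0, with 354 risen genes (84.9%) over the highest time 0 library, against 25.8% of all genes tested. Replicates 2 and 3 of 5 min had medians of -0.13 and 0.00. From 30 to 45 min the medians stayed between -0.11 and 0.15. At 60 min replicate 3 stood at 0.74 and the others at 0.22 and 0.27. Replicates 2 and 3 of 90 min stood at 0.88 and 0.57, and replicate 1 at 0.21. The 4 libraries of 120 min lay between 0.27 and 0.53. The labels give no harvest order or batch that would set these libraries apart, and what they share was not tested.

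**Figure D2:**
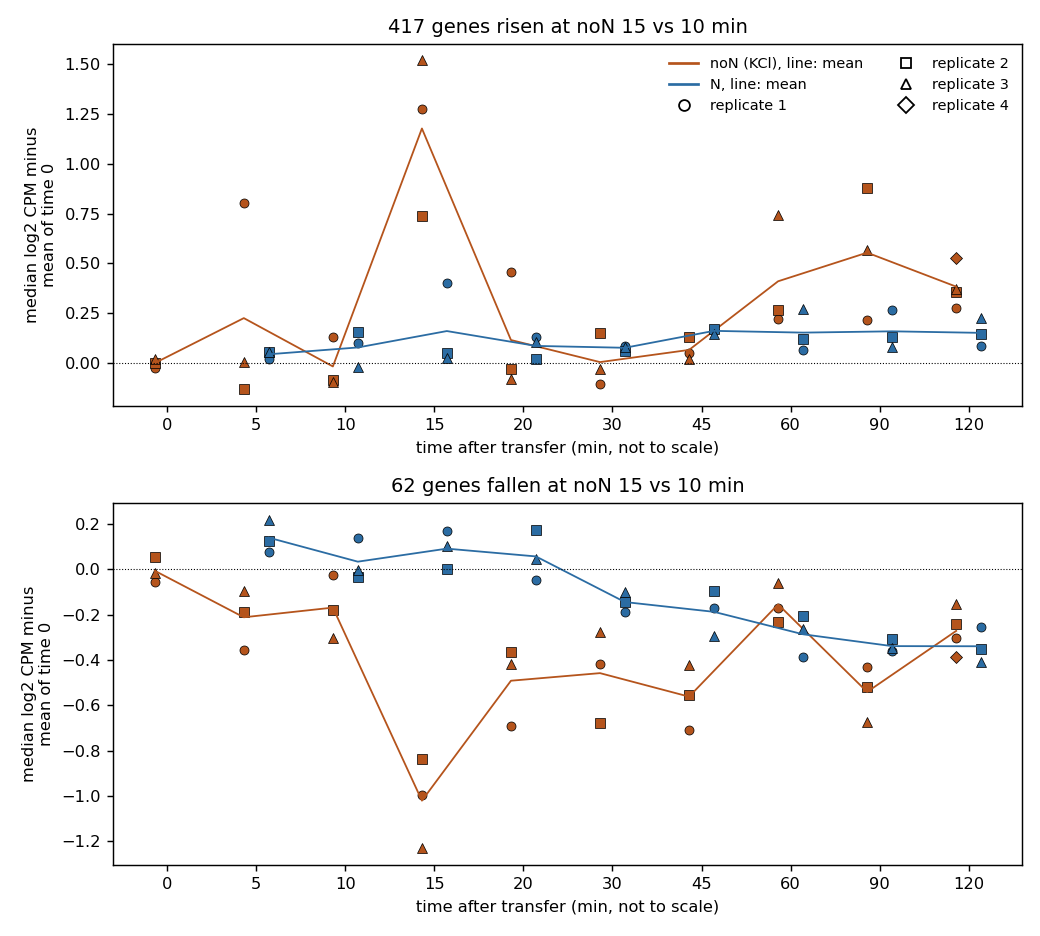
Median over the 417 risen genes (top) and the 62 fallen genes (bottom) of the log2 CPM difference from the mean of time 0, for each library (1 point each) by time after transfer in min, with lines through the group means, for noN (orange) and N (blue). The risen genes have their highest noN group mean at 15 min, with libraries at 0.74 to 1.52. Single noN libraries of 5, 60 and 90 min lie above 0.7, within that range. The fallen genes are lowest in the noN libraries of 15 min and below time 0 in all later noN libraries.

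The N roots showed no comparable rise of these genes at 15 min. The medians of the risen genes in all 27 N libraries lay between -0.02 and 0.40, and the highest of these was replicate 1 of 15 min. From 10 to 15 min with nitrogen 11 genes rose (0.0583% of those tested) and 0 fell, although 903 genes were lower at an unadjusted p of 0.05 and the Wald test of DESeq2 called 43 and 17. Of the 417 genes, 0 were called in either direction in that step, 18 passed an unadjusted p of 0.05, where 2022 of all 18872 genes did, and their median was 0.08 on the log2 scale. Of the 62 fallen genes 0 were called, 11 passed an unadjusted p of 0.05, and the median was 0.14. These libraries share none with the noN step. With only the 6 N libraries in the fit edgeR called 0 of 16215 genes, and 1156 passed an unadjusted p of 0.05. Leaving out replicate 1, 2 or 3 of N 10 min gave 0, 0 and 4 risen genes, and replicate 1 or 2 of N 15 min gave 6 and 32, with 17 fallen genes in the last case and 1 without replicate 3.

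Whether the step itself differed between media was tested directly, as the noN change minus the N change. The difference was called in 18 genes, 8 higher in noN (0.0424%) and 10 lower (0.053%), while 2372 genes passed an unadjusted p of 0.05. For the 8 genes the log2 difference was 0.80 to 2.64, from noN steps of 0.51 to 2.32 and N steps of -0.64 to -0.19. For the 10 genes it was -0.87 to -2.41, from noN steps of -0.18 to -1.29 and N steps of 0.38 to 1.41, so the values were below 0 without nitrogen and above 0 with it in all 10. Over the 417 risen genes the median difference was 1.16, but its median SE was 0.44 against 0.30 for the noN step alone, and the noN libraries that chose the genes also enter this difference. For most of the risen genes the data do not show that the step was particular to the medium without nitrogen.

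The count of such genes moved with the libraries and with the tool. With the replicate number as a block 20 genes were higher and 22 lower. With only the 12 libraries compared 10 were higher and 3 lower, or 36 and 10 with the replicate block. DESeq2 called 100 higher and 60 lower, and leaving out 1 of the 12 libraries gave 0 to 47 higher and 3 to 27 lower, the most without noN replicate 2 of 15 min (47 and 27) and the fewest higher without N replicate 2 of 10 min (0 and 3). Higher calls were 1 without noN replicate 2 of 10 min, noN replicate 1 or 3 of 15 min or N replicate 1 of 15 min, with 3, 3, 3 and 4 lower. They were 2, 5 and 14 without noN replicate 1, noN replicate 3 or N replicate 1 of 10 min, with 5, 7 and 13 lower. Without N replicate 2 of 15 min there were 7 and 16, and without noN replicate 1 of 5 min, which stood apart in the risen genes, 30 and 19.

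**Figure D3:**
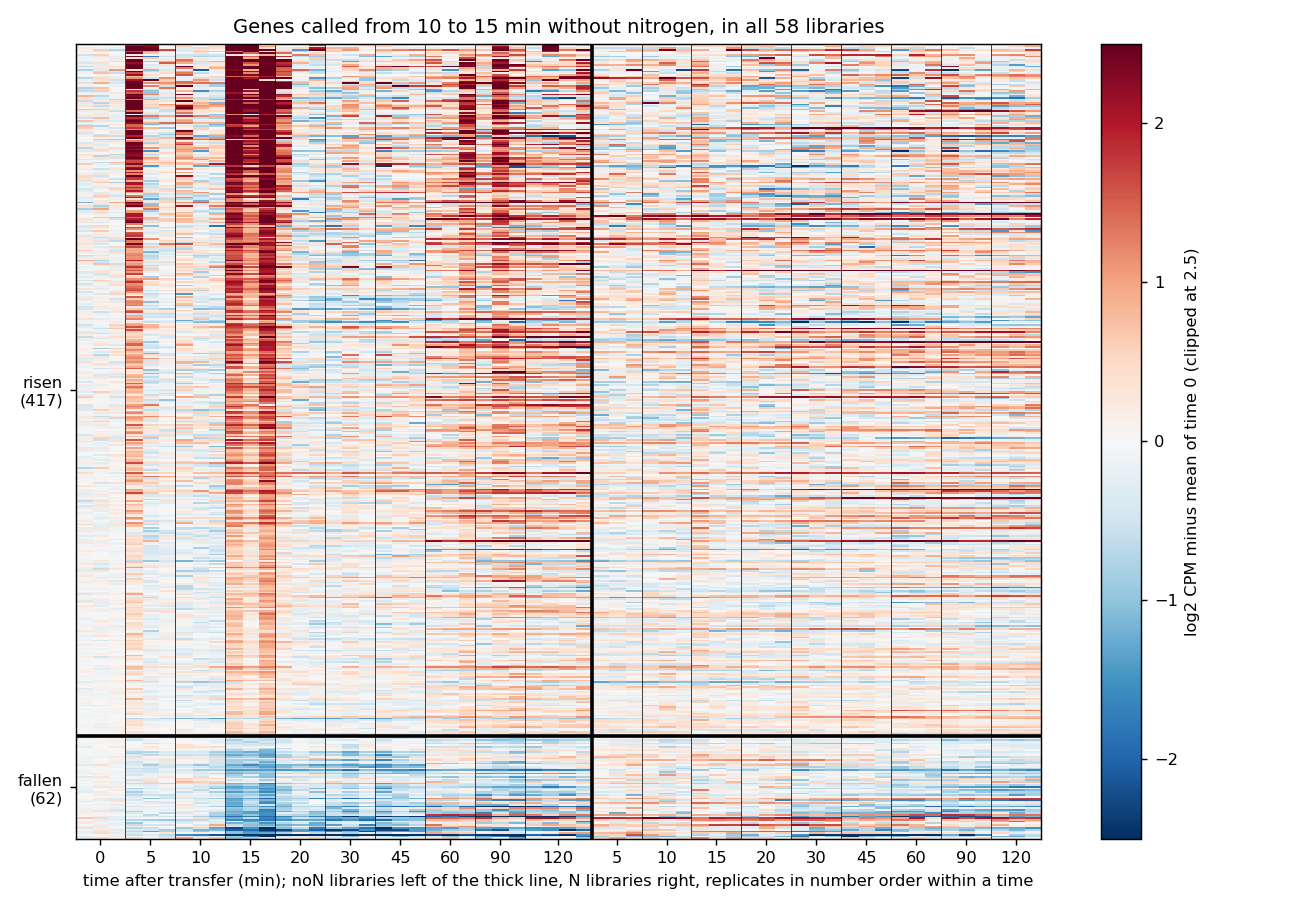
Log2 CPM minus the mean of time 0 (colour, clipped at 2.5) for the 417 risen and 62 fallen genes (rows, ordered by their change from 10 to 15 min without nitrogen) in all 58 libraries (columns by medium and time in min). The 3 noN columns of 15 min are red over most risen genes, as is replicate 1 of noN 5 min, and the N columns to the right of the thick line show no column of that kind at 15 min.

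At times whose libraries took no part in choosing them, the risen genes were mostly not called early and more often called late. From time 0 to 5 min without nitrogen 0 of them were called and 99 passed an unadjusted p of 0.05, with a median of 0.30, and 0 of all genes were called, where 1373 passed an unadjusted p of 0.05. From 5 to 20 min, 1 was higher and 0 lower with a median of -0.20, where 0.249% of all genes were called higher and 0.26% lower. At 20 min against time 0, 4 were higher and 1 lower with a median of 0.21, where 0.938% of all genes were called higher and 2.51% lower. At 45 min against time 0, 22 were higher and 8 lower with a median of 0.11, against 5.37% and 8.22% of all genes. At 90 min against time 0, 163 were higher (39.1%) and 9 lower (2.16%) with a median of 0.66, against 16.3% and 15.2% of all genes. The values at 60 min were 111 higher (26.6%) and 8 lower, against 11.1% and 10.7%, and those at 120 min 132 higher (31.7%) and 20 lower, against 17.7% and 15.7%. The share called higher thus lay near the background at 20 and 45 min and above it from 60 min. At 5 min 0 of all genes were called, so the shares called tell nothing there. The log2 changes to 5 min were above 0 in 79.9% of the risen genes, against 46.9% of all genes, whose median was -0.02. By the medians of the risen genes, replicate 1 alone was high at 5 min.

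Part of the later level came in between 45 and 60 min. In that step without nitrogen 85 of the 417 genes (20.4%) rose and 11 fell, with a median of 0.42. Over all genes 12.2% rose and 10.3% fell. Of the 62 fallen genes 24 (38.7%) rose and 2 fell in it, with a median of 0.37. The rise in this step was thus not particular to the risen genes. The makeup of the libraries changed over the same step, the mean log2 exon length weighted by counts going from 11.05 to 11.11 at 20 to 45 min to 10.967 to 10.999 at 60 to 120 min. Its part in the later counts was not tested.

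The step from 15 to 20 min shares the 15 min libraries with the choice of the genes and is given only beside it. Over all genes it held 115 rises (0.609%) and 387 falls (2.05%). The risen genes had a median of -1.09 in it and the fallen genes one of 0.49. From 10 to 20 min, which shares the 10 min libraries, the medians were 0.20 and -0.28, and from time 0 to 15 min they were 1.31 and -1.0. Genes chosen as extreme in the 10 and 15 min libraries move back in such steps through the choice alone, so nothing is read from these medians. The counts of the 15 to 20 min step fell to 38 falls and 2 rises without replicate 3 of 15 min and were 135 and 18 without replicate 1 and 640 and 265 without replicate 2. Without replicate 1, 2 or 3 of 20 min they were 695, 31 and 56 falls and 270, 4 and 13 rises. With only the 6 libraries of these times in the fit edgeR called 0 of 17029 genes, and 2381 passed an unadjusted p of 0.05.

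The fallen genes followed another course. Their median log2 difference from time 0 was -0.02, -0.18 and -0.30 in the 3 libraries of 10 min and -0.99, -0.84 and -1.23 in those of 15 min. It then stayed between -0.71 and -0.28 in the 9 libraries of 20 to 45 min and between -0.67 and -0.06 in the 10 libraries of 60 to 120 min. At 15 min 59, 59 and 60 of the 62 genes lay below the lowest time 0 library, against 22, 35 and 39 in the 10 min libraries and 53, 41 and 44 in those of 20 min. Over all genes tested, 30.4% to 36.7% lay below it in the libraries of 10 min, 34.96% to 36.04% in those of 15 min and 28.2% to 33.8% in those of 20 min. Against time 0, 17 of the 62 were called lower and 0 higher at 20 min, and 30 lower and 0 higher at 45 min, with medians of -0.49 and -0.57. The shares of all genes were 2.51% lower and 0.938% higher at 20 min and 8.22% and 5.37% at 45 min. At 60 min 17 were lower (27.4%) and 11 higher (17.7%), against 10.7% and 11.1% of all genes. At 90 min 34 were lower and 6 higher with a median of -0.58, against 15.2% and 16.3% of all genes. At 120 min 25 were lower (40.3%) and 10 higher (16.1%), against 15.7% and 17.7% of all genes. In the N libraries of 5 to 20 min their median stayed between -0.05 and 0.22, and in those of 60 to 120 min it was lower, between -0.41 and -0.21.

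The risen gene with the smallest p among genes with a rise of at least 1 on the log2 scale and no overlap was Zm00001d048669 on chromosome 4 (3057594 to 3060877, plus strand, AGPv4), a gene of 2 exons and 2646 exon bases. It stood at 42.03, 45.9 and 42.8 CPM at 10 min and at 213.7, 124.3 and 315.6 CPM at 15 min. All libraries of 15 min were well above those of 10 min, with replicate 3 highest. For this gene and those named below, the lack of overlap was a condition of the choice and supports nothing further. The log2 fold change was 2.32 (SE 0.33, adjusted p = 0.000195).

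Zm00001d048669 stood at 105.3, 45.2 and 56.4 CPM at 20 min, and at 5 min it stood at 97.0, 37.8 and 49.7 CPM, so replicate 1 was the high library at both times. Time 0 held 44.5 ± 4.85 CPM (SD, n = 3). With nitrogen it read 35.98, 69.7 and 51.7 CPM at 10 min and 54.8, 45.3 and 27.1 CPM at 15 min, with overlap, and a log2 change of -0.32 (SE 0.34, adjusted p = 0.774). The steps of the media differed by 2.64 (SE 0.47, adjusted p = 0.00785). The noN libraries that chose the called genes also enter this difference, here and below. At 90 min without nitrogen it stood at 50.6, 157.5 and 96.0 CPM, 1.19 above time 0 on the log2 scale (adjusted p = 0.00544), with replicate 2 highest.

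Zm00001d016311 on chromosome 5 (156652377 to 156668073, minus strand), with 14 exons and 5047 exon bases, stood at 67.9, 45.9 and 45.5 CPM at 10 min and 167.6, 108.6 and 185.4 CPM at 15 min. The groups did not overlap, and replicate 2 was again the lowest of the later time. The log2 fold change was 1.53 (SE 0.23, adjusted p = 0.000442). At 20 min it stood at 60.2 ± 14.5 CPM (SD, n = 3), and at 5 min replicate 1 alone was high, at 116.0 against 47.3 and 49.7 CPM. With nitrogen all 6 libraries of 10 and 15 min lay between 39.5 and 50.5 CPM. The steps of the media differed by 1.72 (SE 0.34, adjusted p = 0.0207).

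**Figure D4:**
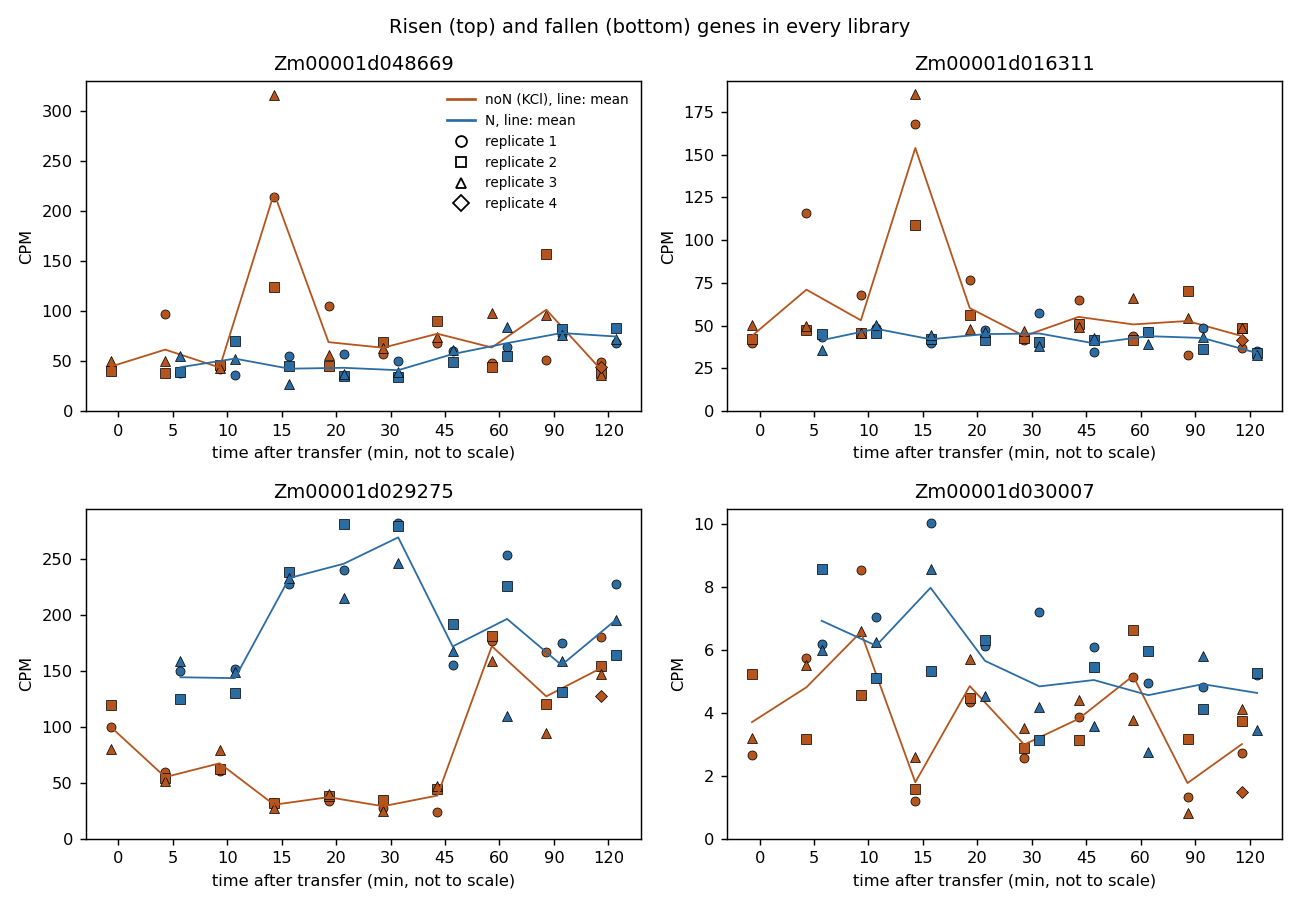
CPM of 4 genes in every library by time after transfer in min, for noN (orange) and N (blue), with lines through the group means. For the risen genes Zm00001d048669 and Zm00001d016311, the noN group mean is highest at 15 min, a time that took part in choosing them. For each of them, a noN library of another time lies above the lowest noN library of 15 min. Zm00001d029275 stays low without nitrogen from 15 to 45 min, and Zm00001d030007 is below 3 CPM in all noN libraries of 15 min.

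Zm00001d029275 on chromosome 1 (64547788 to 64549191, plus strand), with 2 exons and 1266 exon bases, was the first of the fallen genes by the same rule. At time 0 it stood at 99.6, 120.0 and 80.6 CPM and at 5 min already lower, at 60.2, 54.1 and 51.3 CPM. This change to 5 min was -0.86 on the log2 scale and was not called (adjusted p = 0.274). The gene stood at 60.8, 62.2 and 79.7 CPM at 10 min and at 31.7, 32.2 and 27.5 CPM at 15 min, without overlap. The log2 fold change from 10 to 15 min was -1.14 (SE 0.22, adjusted p = 0.00233). Against time 0 it remained lower at 20, 30 and 45 min, by log2 fold changes of -1.43, -1.78 and -1.37 (adjusted p = 0.000117, 1.00e-06 and 1.44e-05). It rose from 45 to 60 min by 2.16 (adjusted p = 2.19e-09). With nitrogen the change from 10 to 15 min was 0.70 (SE 0.20, adjusted p = 0.174), and the steps of the media differed by -1.84 (SE 0.30, adjusted p = 0.0017).

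Zm00001d030007 on chromosome 1 (98891019 to 98893883, plus strand), with 8 exons and 1618 exon bases, had few counts. They were 30, 14 and 17 at 10 min and 4, 5 and 7 at 15 min, or 8.52, 4.56 and 6.61 CPM and 1.20, 1.58 and 2.61 CPM. Every library of 15 min lay below every one of 10 min, and the log2 fold change was -1.88 (SE 0.38, adjusted p = 0.00339). The call is lost when only the 6 libraries enter the fit (adjusted p = 0.0688). The steps of the media differed by -2.24 (SE 0.51, adjusted p = 0.0579), which misses the threshold. At time 0 the gene stood at 2.67, 5.24 and 3.21 CPM, with overlap with the 10 min libraries. At 90 min without nitrogen it was as low as at 15 min, at 1.77 ± 1.25 CPM (SD, n = 3).

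Zm00001d029275 lies in the only run of called neighbours among the fallen genes. On chromosome 1, 4 genes in a row on the plus strand (64514340 to 64686836, 172 kb) fell, with no other listed feature between them. Their log2 fold changes were -1.10, -1.14, -1.25 and -1.29 in chromosome order (adjusted p = 0.0467, 0.00233, 0.0127 and 0.00691). Their exon lengths are alike, at 1396, 1266, 1250 and 1228 bases. Whether they are near-identical copies was not examined, and if so the counting of uniquely placed reads could share reads unevenly among them, so the sum is given.

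The summed level of the 4 genes without nitrogen was 267 ± 38.6 CPM at time 0 and 177 ± 5.74 CPM at 5 min (SD, n = 3). It was 209.0, 207.4 and 298.5 CPM at 10 min, above all 5 min libraries, and 115.3, 113.3 and 82.3 CPM at 15 min. It then stayed at 113 ± 13.5, 92.7 ± 24.8 and 116 ± 12.1 CPM (SD, n = 3) at 20, 30 and 45 min, and was 504 ± 72.3 CPM at 60 min. The N roots held 584 ± 35.2 CPM at 10 min, 718 ± 91.7 CPM at 15 min and 843 ± 95.3 CPM at 30 min. All N libraries of 5 to 45 min lay above all noN libraries of those times. The steps of the media differed in the last 3 genes of the run (adjusted p = 0.0017, 0.0207 and 0.0017), and the first gene missed the threshold (adjusted p = 0.652).

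**Figure D5:**
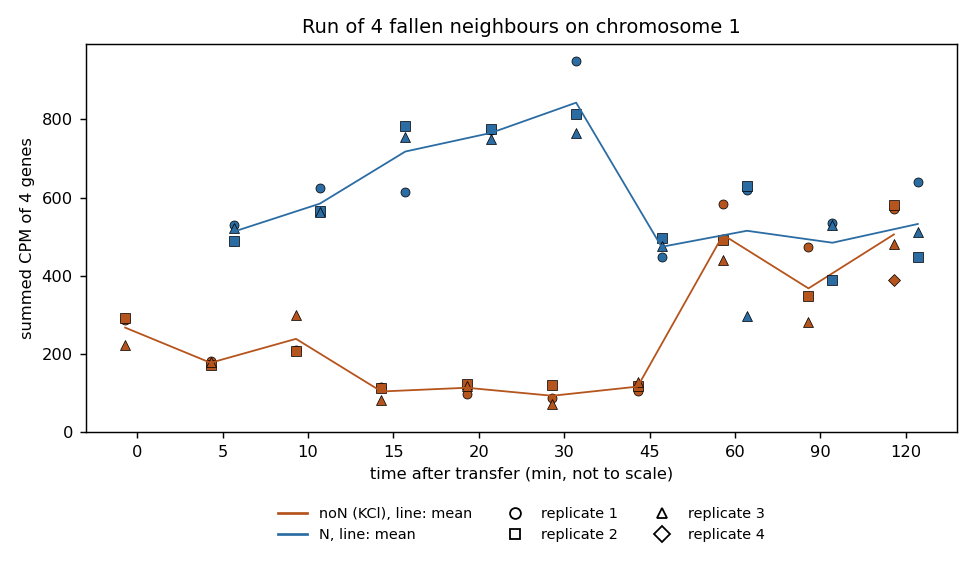
Summed CPM of 4 neighbouring genes on chromosome 1 that fell from 10 to 15 min without nitrogen, in every library by time after transfer in min, with lines through the group means. Without nitrogen (orange) the sum is 223 to 291 CPM at time 0 and 171 to 182 CPM at 5 min. It drops from 207 to 299 CPM at 10 min to 82.3 to 115 CPM at 15 min. The sum stays low to 45 min and is near the N level (blue) from 60 min.

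Risen genes were found on all chromosomes, in shares from 1.80% of the genes tested on chromosome 2 to 3.01% on chromosome 7. Of the 417, 46 lay next to another risen gene, in 21 runs of which 4 held 3 genes. How many would do so by chance was not tested, so nothing on their spacing is read from this count. By exon length, 2.62% of the shortest class rose, 2.496% of the middle class and 1.51% of the longest, in 3 classes of equal size, and the median exon length was 1799 bases for risen, 1550.5 for fallen and 2062 for all genes. By level at time 0 the rises were even, with 138, 134 and 145 genes in the low, middle and high class, while 5, 16 and 41 genes fell. Of the genes with 1 exon 1.74% rose and of the others 2.26%.

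The median change of annotated non-coding genes was below that of all genes (-0.02 on the log2 scale), with no single calls. Of 120 tested, 0 were called by edgeR and 17 passed an unadjusted p of 0.05, with a median of -0.34 on the log2 scale. Over all genes tested 2832 of 18872 passed it, a like share. The lower share of such features in the counts at 15 min is given above. In the 9 noN libraries of 20 to 45 min that share was 0.103% to 0.173%, a range that holds the values of 10 and 15 min. Of 10 plastid and mitochondrial genes tested 0 were called and 1 passed an unadjusted p of 0.05.

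The authors' deposited network lists 196 regulators and 2294 targets, which were all tested here and were chosen in the same study, so they are not independent of these libraries. The regulators are all among the targets too, so they are counted in both. Of the regulators 3 rose (1.53%) and 3 fell (1.53%), and of the targets 30 rose (1.31%) and 15 fell (0.654%). Over all genes tested 2.21% rose and 0.329% fell. Genes outside the network rose in 2.33% and fell in 0.284% of cases. The 3 risen regulators had log2 fold changes of 1.5, 1.29 and 0.55, the first going from 48.8 to 138.7 mean CPM (SE 0.31, adjusted p = 0.00357). The 3 fallen ones had -0.55, -0.98 and -1.08, the last going from 13.8 to 6.56 mean CPM (SE 0.25, adjusted p = 0.0102).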

How the data were processed

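Root RNA of 58 libraries in 19 groups was counted per gene. The submitters' processing notes name fastp 0.21.0, UMI-tools 1.1.1, featureCounts 2.0.1 and STAR 2.7.6a, with no order given. The authors' deposited counts are, per the file headers, reads on the sense strand over exons of AGPv4 release 37, and reads placed at several sites were not asked for; the exon length stands beside them. The authors' deposited quantile normalized table is a score in whole numbers for 18616 genes in 57 libraries, used for an alternative only, and the deposited network weight is a score used only to list genes. Reads were single, of 75 bases.

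Genes were kept by filterByExpr (minimum count 10, minimum total 15), which left 18872 of 46335 features with 99.7% of counts. A quasi-likelihood fit of edgeR 4.0.16 (R 4.3.3) with TMM scaling, a mean for each group and 39 degrees of freedom left for the spread gave all results, with p-values adjusted by Benjamini-Hochberg over all genes and called at 0.05. Values per library are CPM; log2 CPM used a prior count of 3. SE is the standard error of a log2 fold change. The code was tested on simulated data. Alternatives used DESeq2 1.42.0 and limma 3.58.1. No IDs of 44146 gene models matched the reference table of names (another assembly), so the rule names the 2 risen and 2 fallen IDs with the smallest p among called genes that changed by 1 or more on the log2 scale without overlap. The comparison, gene classes and this rule were chosen with earlier results of these data known. Whether replicate numbers pair the noN libraries of 10 and 15 min was not settled. In the N groups the deviations of same-numbered libraries of these times correlated at 0.13, 0.28 and 0.13. Those of unlike numbers ran from -0.21 to 0.05, and such small values do not settle a pairing either.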

Additional observations from a re-analysis of the deposited data

Results flagged for a closer look

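The change from 10 to 15 min differed between roots without and with nitrogen, by the test of the difference itself, in 8 genes with a higher and 10 genes with a lower step without nitrogen. Over the alternatives run, these counts ranged from 0 to 100 higher and from 3 to 60 lower. Among the genes named, the difference was 2.64 for Zm00001d048669, 1.72 for Zm00001d016311 and -1.84 for Zm00001d029275 on the log2 scale, without nitrogen minus with nitrogen. The noN libraries that chose these genes also enter the difference, so its size is not independent of the choice.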

How the results depend on the processing

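With 3 libraries a group, the counts of genes called depend on which libraries give the spread. In a fit of only the libraries compared, 214 genes rose and 8 fell from 10 to 15 min without nitrogen. With a replicate block these counts were 392 and 33. The step from 15 to 20 min had 0 and 0 (0 and 0 with the block), and the N step 0 risen (0 with the block). In a fit of only that medium the noN step had 144 and 16, the 15 to 20 min step 26 risen and 142 fallen, and the N step 19 risen. With only the libraries of 5 to 20 min, chosen after seeing the data, the counts were 187 and 27, then 40 and 161, then 3 risen; the steps of the media differed in 0 genes higher and 3 lower. Limma on quantile normalized values gave 156 fallen in the noN step, 254 risen from 15 to 20 min, 5 risen in N, and 36 and 41 for the difference. DESeq2 gave 43 risen and 17 fallen in N and 100 and 60 for the difference. Removing the trend with gene length gave 95 fallen in the noN step and 5 higher for the difference; a minimum count of 30 gave 19 lower, and no filter 15 higher and 1 fallen in N. Only the libraries compared gave 3 lower, with the block 36 higher. The replicate block over all libraries gave 20 and 22 for the difference, 473 and 76 for the noN step, and 9 risen in N. Without noN_5min replicate 1, also chosen after seeing the data, the difference had 30 and 19. Leaving out 1 library gave 60 to 687 risen and 3 to 146 fallen in the noN step, 2 to 270 risen and 31 to 695 fallen from 15 to 20 min, 0 to 32 risen and 0 to 17 fallen in N, and 0 to 47 higher and 3 to 27 lower for the difference. The causes of these moves were not tested beyond the libraries and genes each setting takes out. Of the 417 risen genes, 413 were also called with the replicate block, 399 by DESeq2 and 358 by limma. With only the libraries compared 168 were, or 248 with the block, and 59 were without replicate 3 of 15 min. The correlations of same-numbered noN libraries of 10 and 15 min were 0.02, 0.16 and 0.01. Those of unlike numbers ran from -0.13 to 0.10. Values this small do not settle whether the numbers pair the libraries, so counts with the block are given as well. The 4 genes named kept their sign in all alternatives run; Zm00001d030007 missed the threshold with only the libraries compared (adjusted p = 0.0688, with the block 0.0697) and the other 3 passed it throughout.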
